A study of Homo sapiens with 24 samples.

Results

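The genes described here are the ubiquitin-specific proteases, the USP family, and the genes that carry a USP symbol, measured in HepG2 cells. Members were all genes whose symbol is USP followed by a digit, except USP18, and a gene with several probe sets was read from the one of highest mean signal. The rule found 53 members among the 14884 genes measured. Family members such as USP9X, USP10, USP11, USP32 and USP36 were not named by any probe set in the annotation used. The family is therefore covered in part. Of these, 43 are protease family genes, 3 are USP17-like multicopy genes (USP17L10, USP17L12 and USP17L15), 4 are antisense or divergent non-coding genes (USP2-AS1, USP3-AS1, USP30-AS1 and USP27X-DT), 2 are pseudogenes (USP17L9P and USP32P1), and 1, USP6NL, encodes a GTPase-activating protein named after its likeness to USP6.

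HepG2 is an established human hepatoma line that keeps many hepatocyte genes. The cells were plated at 10000 per well and treated for 1, 6 or 24 h, and RNA was read on 24 Affymetrix whole-transcript arrays in 8 groups. BRD8518, a compound known here by its code name, was given at 1 uM for 1 h (3 arrays), 6 h (2 arrays) and 24 h (3 arrays). Oncostatin M (OSM), a cytokine of the interleukin-6 family, was given at 100 ng/mL for 1 h (3 arrays) and 24 h (3 arrays). DMSO, the vehicle, was given alone for 1 h (3 arrays), 6 h (4 arrays) and 24 h (3 arrays), and every group, OSM included, had 0.25% DMSO in the medium. The series concerns compounds that induce TRIB1, and the comparisons ask how each treatment changed expression against DMSO of the same time. The labels do not state whether replicate arrays stem from independent cultures. The p-values therefore reflect array-to-array spread only, and that spread may be technical.

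Ubiquitin-specific proteases are cysteine proteases that cut ubiquitin from substrates or trim ubiquitin chains, and so reverse the work of ubiquitin ligases. They are the largest family of human deubiquitinases. Family members act at the proteasome, on endosomes, mitochondria, chromatin and the spliceosome, and several work only with partner proteins. In liver cells, members are known for roles in lipid and circadian regulation (USP2) and in bile canaliculus integrity (USP53, whose loss causes cholestasis).

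All values are log2 signals after robust multi-array averaging (RMA), with array medians from 4.89 to 4.95. Of the members, 36 lay at or above the median gene level of 6.00 and 17 lay under it, with mean signals from 3.13 to 10.9. The 11 members with a mean under 5, among them USP26 (3.14), USP44 (3.13) and USP51 (3.98), had signals near or under the array medians, and RMA gives no detection calls that would separate them from background. USP17L12 and USP17L9P had identical values on every array and so hold 1 measurement, but both are counted among the 53 members and in all counts of calls. One array stood apart from its group before any comparison. DMSO 6 h replicate 2 had a median correlation of 0.977 with the other DMSO 6 h arrays, while the other 23 arrays lay between 0.995 and 0.996. It held the lowest of the 4 DMSO 6 h values for 30 of 53 members and the highest for 15, so the 6 h changes of members are given with and without it. The fit shares 1 spread per gene over all groups, so leaving this array out also moved adjusted p-values at other times, with the changes themselves the same. Of 10 hepatocyte markers, 8 were measured, and ALB (12.1 to 12.5), AFP (11.42 to 11.97) and APOB (12.4 to 12.7) were among the brightest genes on all arrays. The endothelial markers PECAM1 and VWF lay at or under 5.96, 1 of 4 leukocyte markers was measured (CD68, 9.44 to 10.8), and 0 of 4 fibroblast markers were. Of the cholangiocyte markers, all 3 were measured, with SOX9 at 10.64 to 10.98, KRT19 at 7.76 to 8.97 and KRT7 at 4.56 to 5.44.

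Promoter windows are shown for the members with the largest rises after 24 h of BRD8518 (USP54, USP12 and USP25) and for the member with the largest fall (USP2). Each line is the 250 bases before a RefSeq transcription start on GRCh38.p14, written 5′ to 3′ in the direction of the gene. Capitals mark the GC box, GGGCGG or its reverse complement.
USP54, chr10:73625642-73625891, minus strand: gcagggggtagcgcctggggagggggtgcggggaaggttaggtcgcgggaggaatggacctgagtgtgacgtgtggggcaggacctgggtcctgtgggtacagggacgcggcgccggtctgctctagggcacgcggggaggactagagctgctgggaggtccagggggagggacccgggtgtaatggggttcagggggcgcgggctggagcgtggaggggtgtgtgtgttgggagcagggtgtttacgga
USP12, chr13:27171812-27172061, minus strand: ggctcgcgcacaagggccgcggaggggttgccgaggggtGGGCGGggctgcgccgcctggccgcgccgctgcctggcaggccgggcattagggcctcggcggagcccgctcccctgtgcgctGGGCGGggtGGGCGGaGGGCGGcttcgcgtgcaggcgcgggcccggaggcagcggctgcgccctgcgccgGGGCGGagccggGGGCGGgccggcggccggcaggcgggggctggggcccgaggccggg
USP25, chr21:15729732-15729981, plus strand: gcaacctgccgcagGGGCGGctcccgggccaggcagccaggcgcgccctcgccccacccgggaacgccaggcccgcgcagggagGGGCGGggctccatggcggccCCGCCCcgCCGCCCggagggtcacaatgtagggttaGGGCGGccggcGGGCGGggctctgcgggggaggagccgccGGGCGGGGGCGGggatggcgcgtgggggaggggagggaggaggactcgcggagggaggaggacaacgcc
USP2, chr11:119364209-119364458, minus strand: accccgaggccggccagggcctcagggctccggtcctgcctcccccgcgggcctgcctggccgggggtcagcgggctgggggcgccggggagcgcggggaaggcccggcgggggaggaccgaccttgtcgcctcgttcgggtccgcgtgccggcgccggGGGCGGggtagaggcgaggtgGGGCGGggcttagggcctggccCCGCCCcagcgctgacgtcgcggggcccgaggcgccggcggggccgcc
The USP12 window holds 6 GC boxes with a GC content of 84.8%, the USP25 window 8 with 80.8%, the USP2 window 3 with 83.2%, and the USP54 window, the most upstream of 4 starts, 0 with 68.8%. Of 53 members, 37 matched the RefSeq promoter table, with 50 windows among its 35116. Median GC content was 69.4% in the member windows and 58% over the table, and the median number of CG dinucleotides was 25 against 11. A GC box on either strand lay in 72% of the member windows and in 42.6% of all windows. The CCAAT box (CCAAT) was held by 24% and 32% of these windows. An EGR1 motif (GCGNGGGCG, which can share bases with a GC box) was found in 12% and 8.41%, and a STAT motif (TTCNNNGAA) in 4% and 6.57%. Of the member windows, 0 of 50 held the AP-1 motif TGANTCA, against 6.57% of the table, 0 held the CRE motif TGACGTCA (1.65%), and 0 held the E2F motifs TTTCCCGC or TTTGGCGC (1.93%). Windows of different starts of a gene share their gene, and these matches describe letters in the windows. Of the genes that rose after 24 h of BRD8518, 10 had a window and 9 of these held a GC box in at least 1 window, USP54 in another start's, and of those that fell, 8 had a window and 6 held it.

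BRD8518 gave no call among USP genes at 1 h, and moved many of them at 6 h and 24 h in both directions. A call is an adjusted p under 0.05 in limma (Benjamini-Hochberg over all 14884 genes). At 24 h, 12 members rose and 9 fell, which is 39.6% of members against 27.7% of all genes. Of all genes, 12.1% were called higher and 15.6% lower. Members were brighter than genes at large, and among genes at or above the median level the share was 52.8% for members (19 of 36) against 44.8%. At 6 h, 11 members rose and 4 fell, 28.3% against 14.5% of all genes, with 5.62% of all genes higher and 8.86% lower. The 11 include USP17L15 and the same-valued USP17L12 and USP17L9P, whose rises rest on 1 array. Of the 43 protease family genes, 27.9% were called at 6 h. At or above the median level, 30.6% of members (11 of 36) and 23.2% of genes were called at 6 h. At 1 h, limma called 0 of 53 members with BRD8518 (2 at an unadjusted p under 0.05), where 0.255% of all genes were called (0.222% higher and 0.0336% lower). With OSM, 2 members rose and 1 fell at 1 h, beside 2.84% of all genes called (2.03% higher and 0.813% lower). At 24 h of OSM 1 rose and 4 fell, 9.43% of members against 10.3% of all genes (4.6% higher and 5.65% lower). Without the DMSO 6 h array that stood apart, these counts were 20 of 53 at 6 h (37.7% against 22.5% of all genes) and 26 at 24 h (49.1% against 35.7%) for BRD8518, and 5 at 1 h (9.43% against 5.42%) and 12 at 24 h (22.6% against 17%) for OSM. Array weights gave 13 for OSM at 24 h (24.5% against 20.6%). The median member change was 0.06 with BRD8518 at 24 h and -0.00 at 6 h, beside -0.00 and -0.01 over all genes.

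**Figure D1:**
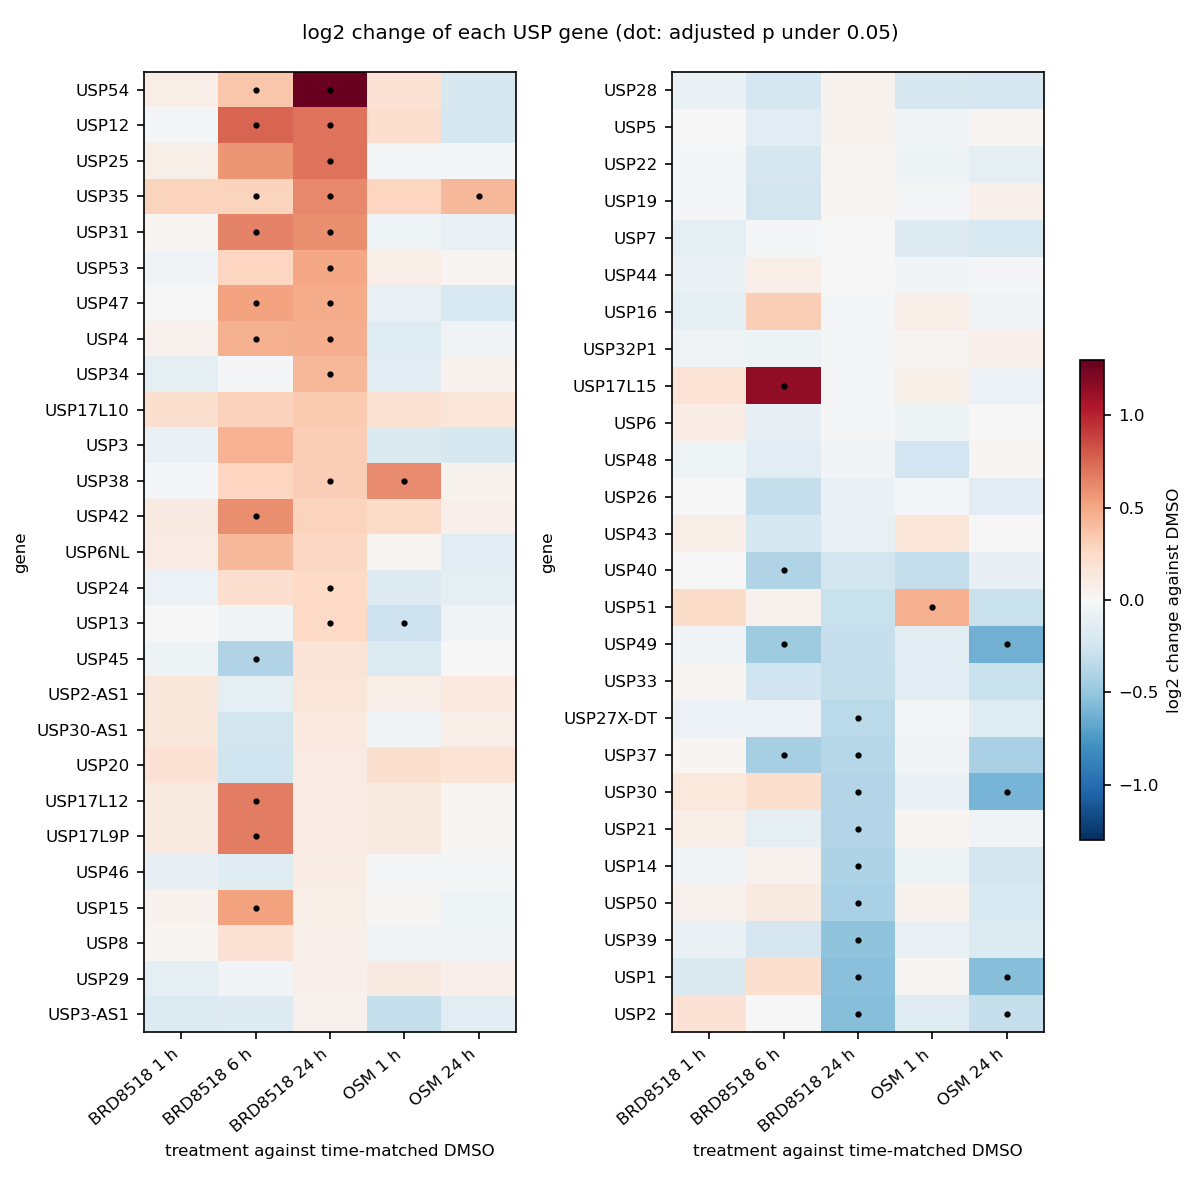
Heatmap of the log2 change of all 53 USP members (rows, ordered by the BRD8518 change at 24 h) in 5 comparisons with DMSO of the same time (columns). Colour gives the log2 change and a dot marks an adjusted p under 0.05: dots sit in 21 rows for BRD8518 at 24 h, in 15 at 6 h and in 0 at 1 h, with 3 and 5 for OSM.

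USP54 made the largest change of all members at 24 h of BRD8518. It encodes a USP-fold protein long annotated as lacking the activity of its relatives. Its 24 h signals were 7.05, 7.20 and 7.12 in DMSO and 8.46, 8.40 and 8.34 in BRD8518. Every treated array lay above every control, a rise of 1.28 (SE 0.07, 2.43-fold, adjusted p = 5.1e-12). At 6 h the DMSO arrays read 7.06, 7.07, 7.21 and 7.10 and the BRD8518 arrays 7.51 and 7.43, so the groups were again apart but the rise was smaller, 0.36 (SE 0.08, adjusted p = 0.0017), and 0.35 without the array that stood apart. The change at 24 h exceeded that at 6 h by 0.92 (SE 0.10, adjusted p = 2.7e-06). With BRD8518 at 1 h it was 0.09, and its 3 arrays overlapped the DMSO arrays. OSM did not share the rise: the 24 h OSM arrays read 6.86, 6.96 and 6.92, all under the DMSO arrays, a change of -0.21 (SE 0.07, adjusted p = 0.072). That fall was called at adjusted p = 0.028 without the DMSO 6 h array that stood apart, at 0.023 with array weights (-0.19) and at 0.027 with genes under the median level left out. USP53, the paralog, which is needed at tight junctions, rose by 0.50 (SE 0.12, adjusted p = 0.0033) with BRD8518 at 24 h. Its 24 h arrays read 7.06, 7.12 and 6.83 in DMSO and 7.50, 7.48 and 7.54 in BRD8518, without overlap, and its change at 6 h was 0.28 (adjusted p = 0.19), or 0.14 without the array that stood apart.

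USP39 went down. It is a spliceosome protein of the USP fold without protease activity. DMSO arrays at 24 h read 8.69, 8.72 and 8.84 and BRD8518 arrays 8.19, 8.32 and 8.16. The fall of 0.52 on the log2 scale (SE 0.09, adjusted p = 5.5e-05) left the groups apart, and at 6 h the change was -0.22 (adjusted p = 0.13), or -0.18 without the array that stood apart. With OSM at 24 h it was -0.18 (adjusted p = 0.25).

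USP12 and USP46 are paralogs that gain activity from WDR48 and WDR20. Only USP12 of the pair was called. Its 6 h signals were 7.83, 7.43, 7.85 and 7.48 in DMSO and 8.50 and 8.31 in BRD8518. All treated arrays were higher, by 0.76 on average (SE 0.13, adjusted p = 0.00015), and by 0.69 (adjusted p = 0.00023) without the array that stood apart. After 24 h the DMSO arrays read 7.84, 7.84 and 7.81 and the BRD8518 arrays 8.53, 8.59 and 8.47, a rise of 0.70 (SE 0.12, adjusted p = 6.4e-05) of nearly the size seen at 6 h. USP46 changed by -0.16 at 6 h (adjusted p = 0.54) and by 0.10 at 24 h (adjusted p = 0.66). Its 24 h interval, -0.17 to 0.37, lies below the USP12 interval of 0.46 to 0.95, and the difference between the genes was not tested. At 6 h USP46 turned into a called fall of -0.35 (adjusted p = 0.00019) once DMSO 6 h replicate 2 was left out. WDR48 itself, which also activates USP1, rose by 0.48 at 6 h (SE 0.11, adjusted p = 0.0032).

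USP31 rose at 6 h and 24 h by similar amounts. At 6 h it read 9.77, 9.70, 9.87 and 9.79 in DMSO and 10.46 and 10.40 in BRD8518. At 24 h it read 9.84, 9.90 and 9.97 in DMSO and 10.52, 10.47 and 10.52 in BRD8518. Groups were apart at both times, with rises of 0.65 (SE 0.07, adjusted p = 1.7e-06) and 0.60 (SE 0.07, adjusted p = 5.6e-07). The 6 h call held in every alternative fit tried, including the fit of the 6 arrays of that time alone, which left 1 of the 15 called members. The 1 h arrays with BRD8518 read 9.85, 9.79 and 9.97, overlapping the DMSO arrays of that time (9.85, 9.77 and 9.91). USP43, its paralog, changed by -0.23 at 6 h (adjusted p = 0.13; -0.15 without the array that stood apart) and -0.09 at 24 h (adjusted p = 0.55).

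**Figure D2:**
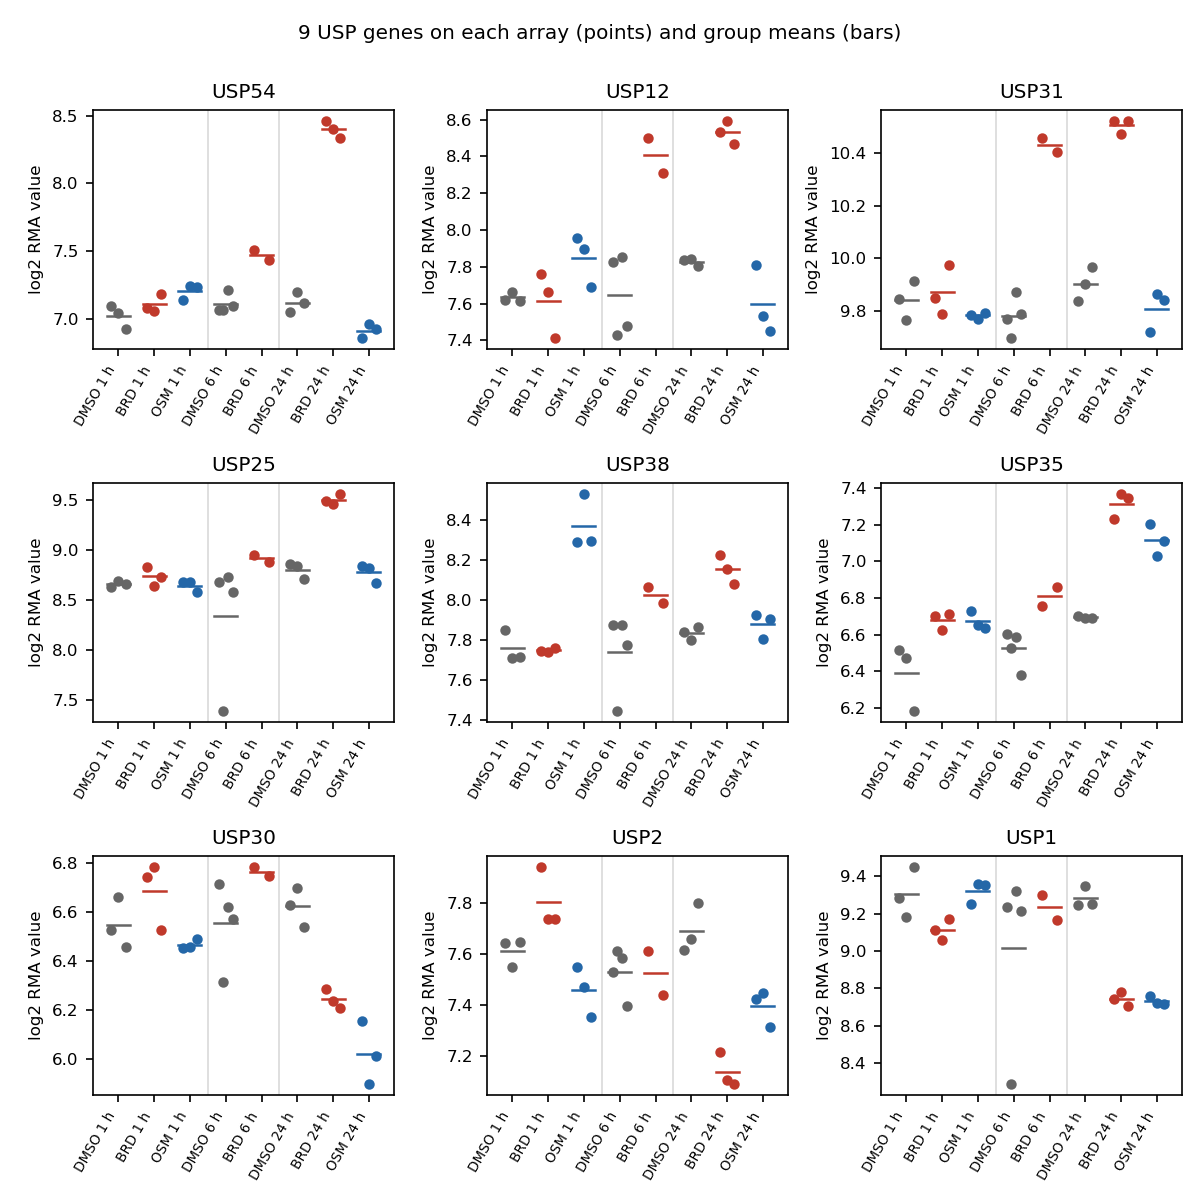
Log2 RMA values of 9 USP genes on each of the 24 arrays (points) with group means (bars), by treatment and time, with grey for DMSO, red for BRD8518 (BRD) and blue for OSM. USP54, USP12, USP31 and USP25 are high after 24 h of BRD8518 and not after 24 h of OSM. All of them also lie above DMSO at 6 h of BRD8518, with USP12 and USP31 close to their 24 h level. USP38 is high after 1 h of OSM, USP35 is high after 24 h of either treatment, and USP30, USP2 and USP1 are low after 24 h of either treatment.

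USP25 and USP28 are another pair of paralogs, known from immune signalling and from control of MYC stability. USP25 read 8.86, 8.84 and 8.71 with DMSO at 24 h and 9.49, 9.47 and 9.57 with BRD8518. The groups were apart, with a rise of 0.70 (SE 0.21, adjusted p = 0.014), which was 0.65 (adjusted p = 0.053) without DMSO 24 h replicate 3. Its standard error is among the widest of the family, since DMSO 6 h replicate 2 read 7.38 where the other 3 read 8.58 to 8.73. The 6 h change was 0.58 (adjusted p = 0.09) with that array and 0.26 (adjusted p = 0.014) without it. USP28 changed by 0.05 at 24 h (adjusted p = 0.77) and by -0.23 at 6 h (adjusted p = 0.1), and the latter was -0.32 (adjusted p = 0.0011) without that array.

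The group of growth factor, Wnt and TGF-beta signalling enzymes had 3 of 5 fixed members measured. USP4 and USP15 were called higher at 6 h, where 5.62% of all genes were. USP4 and USP34 were called higher at 24 h, where 12.1% of all genes were. With 3 genes, this describes the members and not a pathway. USP4 read 8.04, 8.16 and 8.14 in DMSO and 8.61, 8.64 and 8.50 in BRD8518 at 24 h, all treated arrays above all controls. It rose by 0.47 (SE 0.09, adjusted p = 0.00034), and by 0.46 (SE 0.10, adjusted p = 0.0018) at 6 h, or 0.36 without the array that stood apart. USP15, its paralog and a regulator of TGF-beta receptors, was called at 6 h alone. DMSO arrays of that time read 7.57, 7.01, 7.64 and 7.43 and BRD8518 arrays 7.97 and 7.90, a rise of 0.52 (SE 0.13, adjusted p = 0.0053), or 0.39 (adjusted p = 0.003) without the array at 7.01. Without BRD8518 6 h replicate 1 the rise was 0.49 (adjusted p = 0.075). At 24 h USP15 changed by 0.08 (adjusted p = 0.73), and the change between the times had an adjusted p of 0.11. USP34, which acts on axin in the Wnt pathway, rose at 24 h by 0.43 (SE 0.14, adjusted p = 0.02) from 9.83, 9.86 and 9.66 to 10.22, 10.18 and 10.23. The USP34 groups were apart, but the call was lost without DMSO 24 h replicate 3 (0.37, adjusted p = 0.093) and without BRD8518 24 h replicate 1 or 3 (0.42 each, adjusted p = 0.055 and 0.059). Without the DMSO 6 h array that stood apart, at 9.13 for this gene, the 24 h rise had an adjusted p of 9.1e-05. Its 6 h change was -0.01 (adjusted p = 0.97), or -0.19 (adjusted p = 0.11) without that array.

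Among 5 measured members of the DNA repair, replication and p53 list, 1 rose and 1 fell at 24 h. Of all genes, 12.1% were called higher and 15.6% lower at that time. USP47, which acts on DNA polymerase beta in base excision repair, rose by 0.52 at 6 h (SE 0.12, adjusted p = 0.0032; 0.42 without the array that stood apart) and by 0.48 at 24 h (SE 0.11, adjusted p = 0.0018). Its 24 h arrays read 7.96, 8.05 and 7.95 in DMSO and 8.51, 8.42 and 8.47 in BRD8518, without overlap. The 6 h rise was 0.41 (adjusted p = 0.11) without BRD8518 6 h replicate 1. USP7, the paralog that acts on MDM2 and p53 and the brightest member of all (mean 10.9), changed by 0.01 at 24 h (interval -0.20 to 0.22) and by -0.02 at 6 h, or -0.13 (adjusted p = 0.23) without the array that stood apart. USP1, which removes ubiquitin from PCNA and FANCD2, fell. It read 9.25, 9.35 and 9.25 with DMSO at 24 h, 8.74, 8.78 and 8.71 with BRD8518, and 8.76, 8.72 and 8.71 with OSM. Both treatments lay below all controls and overlapped each other, with changes of -0.54 (SE 0.17, adjusted p = 0.016) and -0.55 (SE 0.17, adjusted p = 0.034). The BRD8518 change was -0.52 without BRD8518 24 h replicate 3 (adjusted p = 0.05) and -0.51 without DMSO 24 h replicate 2 (adjusted p = 0.056), and was called in neither fit. Without DMSO 6 h replicate 2, at 8.29 for this gene, it was -0.54 with an adjusted p of 9.8e-07. The OSM call was lost in each fit that left out an OSM or DMSO array of 24 h, with adjusted p-values from 0.075 to 0.12. USP48 changed by -0.04 and USP28 by 0.05 with BRD8518 at 24 h, and neither was called.

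Members at the proteasome moved in different directions. USP14, the proteasome-bound member, fell by 0.40 on the log2 scale (SE 0.13, adjusted p = 0.026) at 24 h of BRD8518, from 10.46, 10.48 and 10.41 to 10.03, 10.06 and 10.06. Treated and control arrays did not overlap, but leaving out any of the 6 arrays compared, other than DMSO 24 h replicate 3, took the adjusted p to between 0.057 and 0.073. Without DMSO 6 h replicate 2 the same -0.40 had an adjusted p of 1.8e-05. USP13 rose at 24 h by 0.25 (SE 0.07, adjusted p = 0.0048), with 8.40, 8.61 and 8.56 in DMSO and 8.78, 8.78 and 8.77 in BRD8518. USP5, its paralog, which takes apart free ubiquitin chains, changed by 0.05 (interval -0.17 to 0.26). USP14 overlaps THOC1 in RefSeq, and probe sets of overlapping genes may read each other.

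USP2 had the largest fall at 24 h of BRD8518. It is a clock-regulated enzyme in liver that is also tied to cyclin D1 and receptor sorting. With DMSO its 24 h arrays read 7.62, 7.66 and 7.80, with BRD8518 7.21, 7.11 and 7.09, and with OSM 7.42, 7.45 and 7.31. The treatments formed separate steps below DMSO, with changes of -0.56 (SE 0.08, adjusted p = 1.7e-05) for BRD8518 and -0.30 (SE 0.08, adjusted p = 0.023) for OSM. The OSM call was lost without OSM 24 h replicate 3 (-0.26) or DMSO 24 h replicate 2 (-0.31) or 3 (-0.24), with adjusted p-values from 0.05 to 0.13. The direct difference, BRD8518 minus OSM, was -0.26 (SE 0.08, adjusted p = 0.028). It was -0.24 to -0.23 (adjusted p = 0.085 to 0.1) without OSM 24 h replicate 1 or 2 or BRD8518 24 h replicate 2 or 3. At 1 h with BRD8518 the arrays read 7.94, 7.74 and 7.74 against 7.64, 7.55 and 7.65, higher on all 3, but the change of 0.19 had an adjusted p of 0.91. The BRD8518 effect at 24 h minus that at 1 h was -0.75 (SE 0.12, adjusted p = 7e-05), and minus that at 6 h -0.55 (SE 0.12, adjusted p = 0.004). USP21, the nuclear paralog that acts on histone H2A, fell with BRD8518 at 24 h alone: 8.53, 8.39 and 8.51 became 8.09, 8.15 and 8.05, a change of -0.38 (SE 0.08, adjusted p = 0.00046). With OSM it was -0.05 (adjusted p = 0.84), and BRD8518 minus OSM was -0.34 (adjusted p = 0.0021). USP8, the ESCRT-linked endosomal member, changed by 0.07 and USP6 by -0.03 with BRD8518 at 24 h.

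The mitochondrial and endoplasmic reticulum list held opposite calls at 24 h under both treatments. USP30, which sits on the outer mitochondrial membrane and opposes mitophagy, fell. Its 24 h arrays read 6.63, 6.70 and 6.54 in DMSO, 6.28, 6.24 and 6.21 in BRD8518, and 6.15, 5.90 and 6.01 in OSM. Both treated groups lay below DMSO, with changes of -0.38 (SE 0.10, adjusted p = 0.0036) and -0.60 (SE 0.10, adjusted p = 0.00011). OSM was the lower of the pair on every array, but the difference of 0.22 had an adjusted p of 0.1. At 6 h of BRD8518, USP30 read 6.78 and 6.75, above all DMSO arrays (6.71, 6.31, 6.62 and 6.57), a change of 0.21 (adjusted p = 0.19), or 0.13 without the DMSO array at 6.31. From 6 h to 24 h the effect dropped by 0.59 on the log2 scale (SE 0.14, adjusted p = 0.0063).

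USP35 moved the other way. Its 24 h arrays read 6.70, 6.69 and 6.69 in DMSO, 7.23, 7.37 and 7.34 in BRD8518, and 7.20, 7.03 and 7.11 in OSM. Both treatments were above DMSO without overlap, by 0.62 (SE 0.09, adjusted p = 5.1e-06) and 0.42 (SE 0.09, adjusted p = 0.0016). At 6 h of BRD8518 the rise was 0.29 (SE 0.09, adjusted p = 0.035; 0.29 without the array that stood apart), a call that was lost without BRD8518 6 h replicate 1 (0.34, adjusted p = 0.086) or 2 (0.23, adjusted p = 0.3), without DMSO 6 h replicate 4 (0.24, adjusted p = 0.097), and with arrays centred on their medians (0.27, adjusted p = 0.064). USP35 overlaps GAB2 in RefSeq. USP20 and USP33, paralogs first found as partners of the ubiquitin ligase VHL, changed by 0.11 and -0.31 at 24 h of BRD8518 (adjusted p = 0.63 and 0.067), and USP19 by 0.03. For USP33, the fit without DMSO 6 h replicate 2 gave -0.31 at 24 h with an adjusted p of 0.0057, and -0.39 at 6 h with an adjusted p of 0.0036.

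USP38, the paralog of USP35, had the largest response to OSM at 1 h. At 1 h its arrays read 7.85, 7.71 and 7.72 in DMSO, 8.29, 8.53 and 8.29 in OSM, and 7.74, 7.74 and 7.76 in BRD8518. OSM arrays were above all others of that time, a rise of 0.61 (SE 0.10, 1.53-fold, adjusted p = 0.00024). BRD8518 minus OSM at 1 h was -0.62 (adjusted p = 0.00023). By 24 h the OSM arrays read 7.92, 7.80 and 7.91 against 7.84, 7.80 and 7.86, overlapping, and the OSM effect had fallen by 0.57 on the log2 scale (SE 0.13, adjusted p = 0.016), or by 0.53 (adjusted p = 0.052) without OSM 24 h replicate 2 and 0.49 (adjusted p = 0.059) without OSM 1 h replicate 2. At 24 h of BRD8518, USP38 was higher by 0.32 (SE 0.10, adjusted p = 0.014), with arrays at 8.22, 8.15 and 8.08, a call lost without BRD8518 24 h replicate 1 (0.28, adjusted p = 0.066). The other calls at 1 h of OSM were smaller. USP51, a histone H2A enzyme of very low signal, rose by 0.46 (SE 0.12, adjusted p = 0.038), from 3.90, 3.69 and 3.71 to 4.39, 4.06 and 4.23. USP13 fell by 0.27 on the log2 scale (SE 0.07, adjusted p = 0.022), from 8.64, 8.51 and 8.53 to 8.23, 8.33 and 8.30. The USP51 call was lost without OSM 1 h replicate 1 or 3 or DMSO 1 h replicate 2 or 3 (0.38 to 0.46, adjusted p = 0.12 to 0.24). The USP13 call was lost without OSM 1 h replicate 1 or 3 or DMSO 1 h replicate 1 or 3 (-0.28 to -0.23, adjusted p = 0.055 to 0.15).

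Of the histone deubiquitinases, 7 of 8 fixed members were measured, and apart from USP21 and USP51 only USP49 was called. USP49, which acts on histone H2B, read 5.73, 5.84 and 5.70 with DMSO at 24 h and 5.22, 5.25 and 4.92 with OSM. The OSM arrays lay below all controls, a fall of 0.62 on the log2 scale (SE 0.12, adjusted p = 0.00099). BRD8518 arrays of 24 h read 5.30, 5.73 and 5.33, overlapping DMSO, with a change of -0.30 (adjusted p = 0.066). That change was called without the DMSO 6 h array that stood apart (-0.30, adjusted p = 0.045), with array weights (-0.33, adjusted p = 0.022) and without BRD8518 24 h replicate 2 (-0.44, adjusted p = 0.0086). At 6 h of BRD8518 it fell by 0.46 (SE 0.13, adjusted p = 0.016), and by 0.51 without the array that stood apart. Without BRD8518 6 h replicate 2 that change was -0.38 (adjusted p = 0.21), and without replicate 1 it was -0.53 (adjusted p = 0.05), not called in either fit. USP22, the deubiquitinase of the SAGA coactivator, changed by 0.03 at 24 h (interval -0.12 to 0.18) and by -0.22 at 6 h (adjusted p = 0.055), or -0.16 without the array that stood apart. USP3 changed by 0.32 at 24 h (adjusted p = 0.15) and 0.45 at 6 h (adjusted p = 0.079). In DMSO 6 h replicate 2 USP3 read 7.97, against 8.82 to 8.98 on the other 3 arrays, and without that array the changes were 0.32 (adjusted p = 0.00047) and 0.22 (adjusted p = 0.034). USP16, USP44 and USP51 had BRD8518 changes between -0.29 and 0.32 at both times, with no call.

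USP37, a cyclin A deubiquitinase of the cell cycle list, was the member called lower at both later times of BRD8518. At 24 h it read 8.87, 8.97 and 8.75 in DMSO, 8.45, 8.50 and 8.52 in BRD8518, and 8.41, 8.49 and 8.44 in OSM. Both treatments were below all controls, with changes of -0.37 (SE 0.14, adjusted p = 0.044) and -0.42 (SE 0.14, adjusted p = 0.053), so that the OSM change missed the threshold in this fit. It was called in 6 alternatives, at -0.43 to -0.39, with adjusted p-values of 0.00022 without the DMSO 6 h array that stood apart, 6.8e-05 with array weights, 0.0083 with the compared groups alone, 0.031 with genes under the median level left out, 0.044 after quantile normalization and 0.041 with trended robust moderation. At 6 h the BRD8518 arrays read 8.41 and 8.18 and the DMSO arrays 8.83, 8.18, 9.004 and 8.89. That change of -0.43 (adjusted p = 0.048) became -0.61 (adjusted p = 7.6e-06) without the DMSO array at 8.18. Leaving out any other array of that time gave -0.55 to -0.32, with adjusted p-values from 0.075 to 0.41. At 24 h, leaving out any array but DMSO 24 h replicate 3 gave -0.39 to -0.32, with adjusted p-values from 0.079 to 0.15, and leaving out DMSO 6 h replicate 2 gave -0.37 with an adjusted p of 0.00024. USP26 and USP29, its germline paralogs, had low signals (means 3.14 and 3.94) and no call.

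Calls at 6 h alone fell on 8 members. USP42, which acts on p53 and histones, rose by 0.60 (SE 0.13, adjusted p = 0.0022), with 7.39, 6.69, 7.32 and 7.19 in DMSO and 7.80 and 7.71 in BRD8518. Without the array at 6.69 its rise was 0.45 (adjusted p = 0.00044), and at 24 h it was 0.29 (adjusted p = 0.093). The 24 h rise was called without that array (0.29, adjusted p = 0.0045), after quantile normalization (0.32, adjusted p = 0.031), with array weights (0.27, adjusted p = 0.0053) and with the compared groups alone (0.29, adjusted p = 0.017). USP40 fell by 0.39 on the log2 scale (SE 0.10, adjusted p = 0.012; -0.42 without the array that stood apart), from 7.30, 7.28, 7.60 and 7.29 to 6.99 and 6.96. Its 24 h change was -0.24 (adjusted p = 0.08), and the times differed by 0.15 (adjusted p = 0.63). The 24 h fall was called with genes under the median level left out (adjusted p = 0.042) and with array weights (-0.25, adjusted p = 0.029). It was also called without BRD8518 24 h replicate 2 (-0.32, adjusted p = 0.026). USP45, a DNA repair enzyme acting on ERCC1, fell by 0.39 (SE 0.13, adjusted p = 0.039), from 7.33, 6.74, 7.46 and 7.18 to 6.84 and 6.72, and its change was -0.54 (adjusted p = 5.7e-05) without the array at 6.74. By 24 h USP45 was at 0.17 (adjusted p = 0.36), a difference between the times of 0.56 (SE 0.17, adjusted p = 0.04). The USP40 fall was not called without BRD8518 6 h replicate 1 (-0.41, adjusted p = 0.074) or 2 (-0.38, adjusted p = 0.11). The USP45 fall was not called without any array of that time other than DMSO 6 h replicate 2 (-0.46 to -0.30, adjusted p = 0.062 to 0.3).

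The USP17-like calls at 6 h rested on a single array. USP17L15 read 3.07, 3.18, 3.01 and 3.42 in DMSO and 3.26 and 5.37 in BRD8518. USP17L12 and USP17L9P, which share their values, read 4.93, 5.17, 4.79 and 5.26 in DMSO and 5.05 and 6.34 in BRD8518. In both cases 1 BRD8518 array lay within the DMSO range and the other far above it. The fitted rises were 1.15 (SE 0.32, adjusted p = 0.016) and 0.66 (SE 0.21, adjusted p = 0.032), and without BRD8518 6 h replicate 2 they were 0.09 (adjusted p = 0.91) and 0.01 (adjusted p = 0.98). Without the DMSO array that stood apart they were 1.15 and 0.71. The second also missed the threshold without DMSO 6 h replicate 1 (0.63, adjusted p = 0.065) or 3 (0.58, adjusted p = 0.078). These near-identical tandem genes may also read each other's transcripts. Among the 43 protease family genes alone, 8 were called higher and 4 lower at 6 h.

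Several remaining calls at 24 h of BRD8518 were small or of low signal. USP24 rose by 0.26 (SE 0.09, adjusted p = 0.025) from 8.99, 9.05 and 8.98 to 9.28, 9.24 and 9.28. USP50, a member of low signal that overlaps USP8 in RefSeq, fell by 0.42 (SE 0.12, adjusted p = 0.0079) from 4.54, 4.36 and 4.13 to 3.73, 4.03 and 4.02. The divergent transcript USP27X-DT fell by 0.35 (SE 0.11, adjusted p = 0.02) from 4.33, 4.39 and 4.61 to 4.15, 4.20 and 3.94. In each of these the groups did not overlap, but the call did not outlast every array. It was lost for USP24 without BRD8518 24 h replicate 1 or 3 or DMSO 24 h replicate 1 or 3 (0.25 to 0.26, adjusted p = 0.067 to 0.075). For USP50 it was lost without replicate 1 of either group (-0.32, adjusted p = 0.067), and for USP27X-DT without replicate 3 of either (-0.27, adjusted p = 0.12 and 0.13). The antisense genes USP2-AS1, USP3-AS1 and USP30-AS1 were not called in any comparison with DMSO, with changes from -0.31 to 0.15. USP6NL changed by 0.27 at 24 h of BRD8518 (adjusted p = 0.28), and by the same amount with an adjusted p of 0.0033 without the array that stood apart.

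Of the 29 members called at 6 h or 24 h, 6 were higher at both times (USP4, USP12, USP31, USP35, USP47 and USP54), 1 was lower at both (USP37), 0 went in opposite directions, 8 were called at 6 h only and 14 at 24 h only. The 8 include USP17L12, USP17L15 and USP17L9P, whose calls rest on 1 array. The same overlap was not counted over all genes, so these numbers only describe the members. A call at a single time does not show that the times differ, and the change itself differed between 6 h and 24 h for 6 members, 11.3% against 11.1% of all genes (5.96% upward and 5.12% downward). These were USP54 and USP45, with the higher change at 24 h, and USP1, USP2, USP30 and USP50, with the lower. USP1 differed by -0.76 (SE 0.24, adjusted p = 0.044), which was -0.52 (adjusted p = 0.00068) without DMSO 6 h replicate 2, and USP50 by -0.53 (adjusted p = 0.046). The USP1, USP45 and USP50 differences were each lost without any of at least 8 single arrays (adjusted p = 0.05 to 0.21), and those of USP2, USP30 and USP54 held in every alternative fit. Without DMSO 6 h replicate 2, 14 members differed between the times (26.4% against 18.4% of all genes), among them USP25 (0.44, adjusted p = 0.0027), USP34 (0.62, adjusted p = 0.00044) and USP46 (0.45, adjusted p = 0.00043). Between 1 h and 24 h of BRD8518, 6 members differed upward and 6 downward, 22.6% against 17.5% of all genes (7.24% upward and 10.3% downward), with USP54 (1.19, adjusted p = 1.6e-08), USP12 (0.72, adjusted p = 0.0031) and USP2 (-0.75) the largest. The USP50 and USP51 differences were lost in 12 and 10 of 21 alternative fits. Those of USP47, USP4 and USP53 were lost in 10, 9 and 8 of 22. The USP12, USP21 and USP39 differences were lost in 1, 1 and 2, and those of USP2, USP30, USP31 and USP54 in 0. With the position letter as a fixed term 4 members differed, 7.55% against 10.8% of all genes. That fit takes the 1 h BRD8518 level from replicate 1 alone, the array at letter B, so it is not a like comparison with the other fits. Between 1 h and 24 h of OSM, 4 members differed, all downward (7.55% against 3.37% of all genes, with 1.27% upward and 2.1% downward): USP51 (-0.74, adjusted p = 0.012), USP38, USP30 (-0.52, adjusted p = 0.031) and USP54 (-0.40, adjusted p = 0.028). The USP30 and USP54 differences were lost without most single arrays (adjusted p = 0.056 to 0.11).

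**Figure D3:**
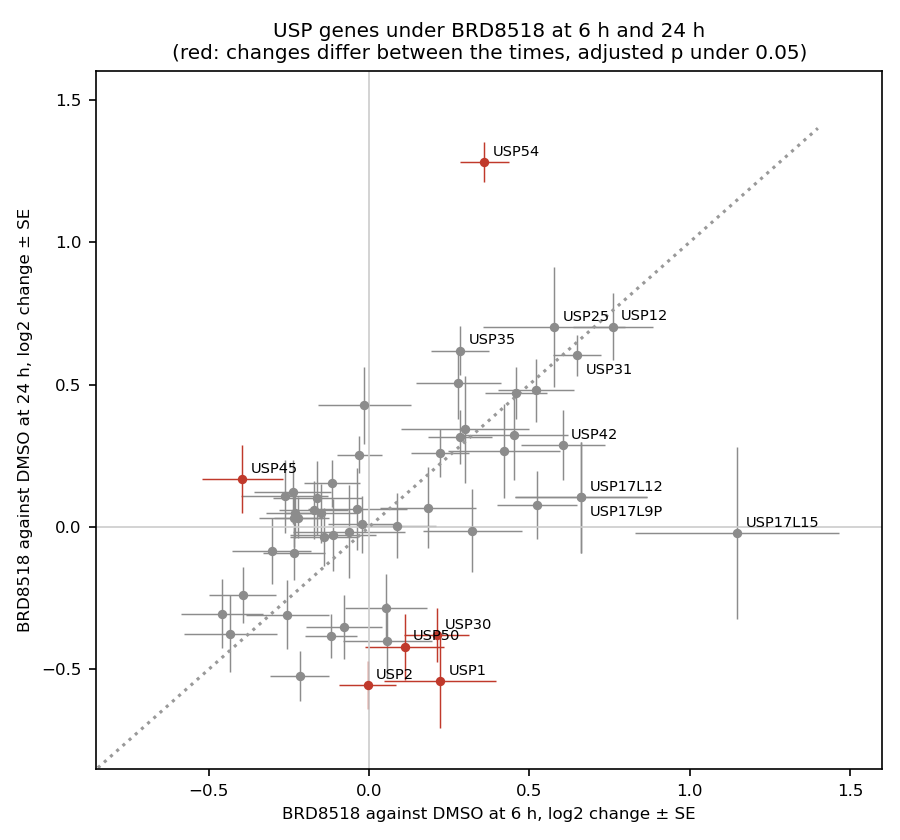
Log2 change of each USP member with BRD8518 against DMSO at 6 h (x axis) and at 24 h (y axis), with standard errors as bars and the dotted line marking equal change. USP54 lies far above the line (0.36 against 1.28), USP1, USP2, USP30 and USP50 lie below it, USP12 and USP31 lie close to it, and USP17L15 lies farthest right (1.15 at 6 h), a value that rests on 1 array.

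BRD8518 and OSM were compared directly at matched times, since their changes against DMSO share the same control arrays. At 24 h, 13 members were higher with BRD8518 than with OSM and 3 lower, 30.2% against 23.2% of all genes (10.9% higher and 12.3% lower). The largest differences were USP54 (1.49, SE 0.07, adjusted p = 5.3e-13), USP12 (0.93, SE 0.12, adjusted p = 2.6e-06), USP25 (0.73, SE 0.21, adjusted p = 0.013), USP31 (0.70, SE 0.07, adjusted p = 1.1e-07) and USP47 (0.68, SE 0.11, adjusted p = 6.5e-05). USP3 was higher by 0.53 (adjusted p = 0.017), USP4 by 0.51 (adjusted p = 0.00017) and USP53 by 0.48 (adjusted p = 0.006). The USP25 and USP3 differences had adjusted p-values of 0.053 and 0.051 without OSM 24 h replicate 3 and without OSM 24 h replicate 2 or BRD8518 24 h replicate 3. Lower with BRD8518 were USP2, USP21 and USP39, the last at -0.34 (SE 0.09, adjusted p = 0.0051). Against DMSO at 24 h, USP1, USP2 and USP30 were lower and USP35 higher with both treatments, USP49 was called with OSM but not BRD8518 in the fit of all arrays, and 0 members were called in opposite directions. This overlap between the treatments was not counted over all genes. For USP1 the direct difference was 0.01 (interval -0.33 to 0.35), for USP35 it was 0.20 (adjusted p = 0.1) and for USP49 0.32 (adjusted p = 0.059). At 1 h, USP2 (0.35, adjusted p = 0.023) and USP13 (0.28, adjusted p = 0.022) were higher and USP38 lower with BRD8518 than with OSM, 5.66% of members against 2.34% of all genes (0.847% higher and 1.5% lower). The USP2 and USP13 calls at 1 h were lost without 3 and 5 of the single arrays compared (adjusted p = 0.059 to 0.2). USP2 has 2 probe sets, and with their mean its 1 h difference was 0.25 (adjusted p = 0.19), not called.

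In 3 paralog pairs both genes were called together at 24 h of BRD8518, and in 7 groups a single gene was. At that time 39.6% of members and 27.7% of all genes were called. How often both genes of unrelated pairs were called was not counted, so these numbers only describe the groups. In the 14 paralog groups with over 1 measured member, the BRD8518 change at 24 h was called in the same direction for both genes in USP2 and USP21, USP35 and USP38, and USP53 and USP54. It was called for a single gene in USP4 and USP15, USP5 and USP13, USP7 and USP47, USP12 and USP46, USP25 and USP28, USP31 and USP43, and USP37 with its germline relatives. Intervals of the 2 genes did not overlap in USP31 (0.46 to 0.75) and USP43 (-0.28 to 0.10), or in USP7 and USP47 (0.25 to 0.71), while those of USP4 (0.28 to 0.66) and USP15 (-0.17 to 0.32) did. Differences within pairs were not tested. USP11, the other gene of the USP4 and USP15 group, was not named in the annotation used.

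**Figure D4:**
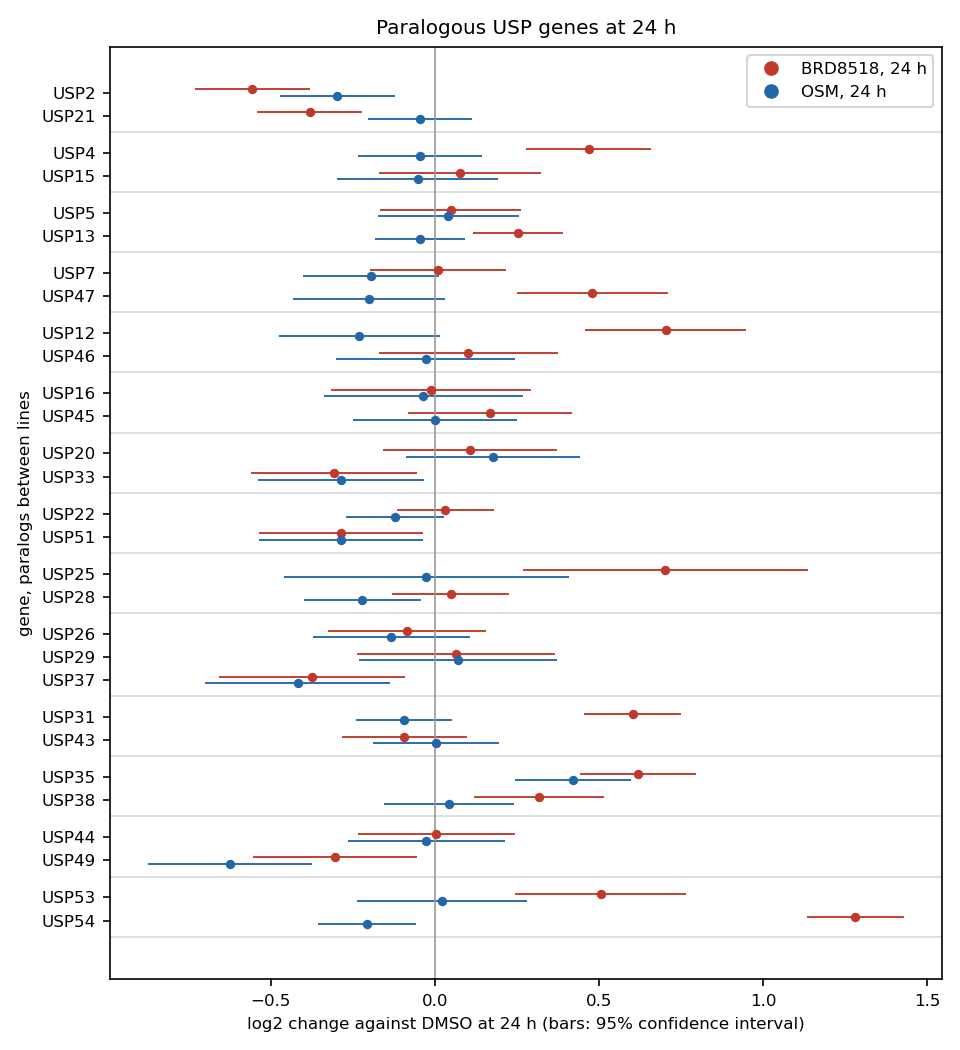
Log2 change at 24 h against DMSO (points) with 95% confidence intervals (bars) for paralogous USP genes, grouped between lines, with BRD8518 in red and OSM in blue. The BRD8518 points of USP12, USP31, USP47 and USP54 lie to the right of their OSM points, while USP2 and USP37 lie left of 0 in both colours.

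Other genes of the ubiquitin system, from lists drawn up for this family, are given for comparison. Of 42 other deubiquitinases, 26 were measured, and 8 rose and 4 fell at 24 h of BRD8518 (46.2% against 27.7% of all genes), with 1 each way at 6 h. The share at 6 h was 7.69% against 14.5% of all genes. Of genes at or above the median level, 44.8% were called at 24 h, and this list was not split by level. STAMBPL1, a metalloprotease relative of the endosomal AMSH, rose by 0.90 (SE 0.11, adjusted p = 8.7e-07), OTUD1 by 0.87 (SE 0.11, adjusted p = 1.6e-06) and JOSD1 by 0.59 (SE 0.07, adjusted p = 8.7e-07). UCHL5, a proteasome-bound enzyme, fell by 0.53 (SE 0.12, adjusted p = 0.0019). With OSM at 24 h 2 of 26 rose, STAMBPL1 (0.54, adjusted p = 0.0018) and OTUD5 (0.24, adjusted p = 0.03), and 0 fell. That is 7.69% against 10.3% of all genes. Of 11 measured partner proteins of USPs, 3 rose at 6 h (STAM, WDR48 and ATXN7), where 14.5% of all genes were called, and 3 rose and 3 fell at 24 h, where 27.7% were. STAM, the endosomal partner of USP8, rose by 0.50 (adjusted p = 0.0095) and 0.99 (adjusted p = 1.3e-06), ATXN7L1 by 0.69 at 24 h (adjusted p = 3.7e-06), and G3BP1, a partner of the USP10 enzyme, fell by 0.37 (adjusted p = 0.00021). Of 6 listed genes for ubiquitin and its activating (E1) enzymes, 3 were measured. At 24 h of BRD8518 1 of these was called higher and 1 lower, where 27.7% of all genes were called. At 6 h 0 were called higher and 1 lower, where 14.5% were called. UBB, a polyubiquitin gene, fell by 0.63 at 6 h (SE 0.12, adjusted p = 0.00065) and 0.60 at 24 h (SE 0.11, adjusted p = 0.00026).

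Technical and cell-state values that moved with these groups are as follows. Arrays carry a position code of unstated meaning, with all 24 h arrays at letter A except DMSO 24 h replicate 3 at B, and all 6 h arrays at D. Without DMSO 24 h replicate 3, the arrays compared at 24 h were all at letter A, while the spread still came from arrays of every letter. In that fit 17 members were called with BRD8518 at 24 h (9 higher, 8 lower), 32.1% against 24% of all genes, and 3 with OSM, 5.66% against 8.19%. With the letter as a fixed term 15 were called with BRD8518 (28.3% against 23.6%) and 3 with OSM (5.66% against 7.71%). DMSO 24 h replicate 3 alone links letters A and B within a group. The letter fit therefore gives the same 24 h changes as leaving it out (USP25 0.65 and USP34 0.37 in both), and is not a separate check. The mean of the 8 hepatocyte markers was 11.28 to 11.35 on the DMSO arrays of 24 h and 10.90 to 11.01 on the BRD8518 arrays, with 5 of 8 called lower. CD68 was 9.45 to 9.68 and 10.75 to 10.79 on the same arrays. With OSM at 24 h the hepatocyte mean was 11.20 to 11.29, with 4 of 8 markers called lower and 1 higher, and CD68 was called higher (9.84 to 9.97). Of the 3 cholangiocyte markers, 1 was called higher at 24 h with BRD8518 and 1 with OSM. HepG2 is a single cell line, so these lists read the state of its cells and not a mix of cell types. CD68 was bright on the DMSO arrays as well. In bulk RNA, a shift in some of the cells and a shift in all of them cannot be told apart. The part of these shifts in the USP results was not tested.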

How the data were processed

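The deposited table holds log2 expression values that the authors made by robust multi-array averaging. The submitters' processing notes name the oligo package, with no version or genome build. The table has 53617 probe sets, of which 16098 name 1 gene symbol and 37519 none, and 779 genes have several. Each gene was read from its brightest probe set by mean, which gave 14884 genes.

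All 24 arrays were fitted in 1 model of 8 group means with limma 3.58.1 in R 4.3.3, with empirical Bayes moderation and Benjamini-Hochberg adjustment over all genes. An adjusted p under 0.05 was called, and changes are differences of log2 values. The fit was checked on simulated data. Arrays give no read depth, and their number limits the precision.

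Members, lists and tests were chosen with earlier results of these data known. Genes named were every member called against DMSO, with its paralogs, at most 12 per direction, and called members of the other contrasts, at most 8 per direction. Pathway lists gave counts and up to 3 genes each. Alternatives were a filter on low values, median centring, quantile normalization, trended robust moderation, array weights, averaged probe sets, the position letter as block or term, the compared groups alone, and fits leaving out arrays. Promoter windows come from RefSeq on GRCh38.p14.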

Additional observations from a re-analysis of the deposited data

Results flagged for a closer look

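At 6 h, 1 DMSO array lay far from the other 3 for several members, by a gap test that flags about 1 group in 20 by chance. DMSO 6 h replicate 2 was the lowest for USP1 (8.29), USP3 (7.97), USP6NL (8.25), USP14 (9.67), USP25 (7.38), USP34 (9.13) and USP46 (6.75), and the highest for USP19 (8.74). DMSO 6 h replicate 3 was the highest for USP40 (7.60).

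The BRD8518 change differed between 6 h and 24 h, by limma's test of the difference, for USP54 (0.92), USP45 (0.56), USP1 (-0.76), USP30 (-0.59), USP2 (-0.55) and USP50 (-0.53). Between 1 h and 24 h it differed upward for USP54 (1.19), USP12 (0.72), USP31 (0.57), USP53 (0.55), USP47 (0.48) and USP4 (0.41). It differed downward for USP2 (-0.75), USP30 (-0.52), USP51 (-0.52), USP50 (-0.48), USP21 (-0.47) and USP39 (-0.44). Of these differences between 1 h and 24 h, those of USP4, USP47, USP50, USP51 and USP53 were each lost in at least 8 alternative fits. The OSM change differed between 1 h and 24 h for USP51 (-0.74), USP38 (-0.57), USP30 (-0.52) and USP54 (-0.40). All 6 h arrays share 1 position letter, and most 24 h and 1 h arrays share another each.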

How the results depend on the processing

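No called member value reversed in 1459 alternative fits of 85 values; 1212 kept the call and 247 lost it, and 35 values kept it throughout. Fitting the compared arrays alone changed the count of called members from 15 to 1 for BRD8518 at 6 h, from 3 to 1 for OSM at 1 h, from 5 to 8 for OSM at 24 h, from 3 to 1 for BRD8518 against OSM at 1 h, from 6 to 3 for BRD8518 at 24 h minus 6 h, and from 12 to 21 for 24 h minus 1 h. Array weights gave 6, 13, 5, 16 and 24 for the last 5 of these, and 9 instead of 4 for OSM at 24 h minus 1 h. In the same order, array weights called 7.56%, 20.6%, 6.28%, 19.3%, 27% and 8.9% of all genes. The main fit called 2.84%, 10.3%, 2.34%, 11.1%, 17.5% and 3.37% of them. The share of all genes is not given for fits of the compared arrays alone, so those counts only describe the members. Without the DMSO 6 h array that stood apart the counts were 5 for OSM at 1 h, 12 for OSM at 24 h and 24 for BRD8518 at 24 h minus 1 h. Of all genes, 5.42%, 17% and 26% were called in these fits. With the position letter as a fixed term the counts were 3 for OSM at 24 h, 4 for BRD8518 at 24 h minus 1 h and 1 for OSM at 24 h minus 1 h. The shares of all genes were then 7.71%, 10.8% and 2.45%. Leaving out 1 array at a time gave 0 to 0 for BRD8518 at 1 h, 7 to 20 at 6 h, 15 to 21 at 24 h, 1 to 3 for OSM at 1 h, 3 to 4 at 24 h, 1 to 2 and 12 to 16 for BRD8518 against OSM at 1 h and 24 h, 3 to 14 for 24 h minus 6 h, 7 to 12 for 24 h minus 1 h, and 1 to 4 for OSM at 24 h minus 1 h. Among all 14884 genes, these fits called 25 to 38, 1208 to 3345 and 3539 to 3704 for BRD8518. For OSM they called 274 to 362 and 1107 to 1222, and for BRD8518 against OSM 224 to 296 and 2741 to 3087. For the differences between times they called 1018 to 2741, 2196 to 2416 and 384 to 446. The causes were not tested. No paired analysis was possible because the labels give the arrays no shared replicate numbers.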

Other observations

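Known substrates and targets of USPs, 11 of 20 fixed genes measured, were read at the RNA level. With BRD8518 at 24 h, 5 were called higher and 3 lower (limma, adjusted p under 0.05), where 27.7% of all genes were called. EGFR, a receptor sorted by endosomal USPs, rose by 1.90 (SE 0.11, adjusted p = 1.5e-11). PCNA, a replication clamp and target of USP1, fell by 1.38 on the log2 scale (SE 0.09, adjusted p = 1.1e-10), and CLSPN, a checkpoint adaptor, by 1.17 (SE 0.13, adjusted p = 2.4e-07). At 6 h, where 14.5% of all genes were called, 3 rose and 3 fell, with MCL1 at 1.37 and MYC at 1.10, and PCNA at -0.57 (adjusted p = 0.00025). With OSM at 24 h, where 10.3% were called, 2 rose and 4 fell, with PCNA at -0.57 (adjusted p = 0.00015), CLSPN at -0.74 (adjusted p = 0.00034) and AXIN2 at 0.47 (adjusted p = 0.00047). These are RNA levels, and no protein or ubiquitin state was measured.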
